A study of Mus musculus with 2 samples.

Results

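Proteasome genes, constitutive and immune, were taken as every gene with a protein_coding transcript whose symbol starts with Psm, a letter from a to g and a digit. This gave 50 genes of the 55536 in the annotation, with 278 transcripts, of which 111 are protein_coding. They were measured in 2 total RNA libraries of whole heart from adult male mice labelled 5xFAD X Cast and aged 8-10 months. The 5xFAD line is a transgenic model of Alzheimer disease whose transgenes are driven by the neuron-active Thy1 promoter, and Cast mice descend from wild-caught founders; the labels do not say whether these animals carried the transgenes. No group of another genotype, age, sex or treatment is analysed here, so the libraries are described and compared only with each other. They are numbered as separate biological replicates with separate tissue samples, yet both carry the same donor identifier, which leaves unclear whether their spread is technical.

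The proteasome degrades proteins that carry ubiquitin chains. Its barrel, the 20S core, stacks rings of alpha and beta subunits, and the protease sites sit on 3 beta subunits inside. The 19S particle caps the barrel, binds ubiquitin, removes it, and unfolds the substrate with a ring of ATPases. Interferon and inflammatory signals bring in immune versions of the 3 catalytic subunits, together with the PA28 activator, and these change which peptides are cut for display on MHC class I. In heart muscle the proteasome turns over contractile and damaged proteins alongside autophagy.

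The immune and constitutive catalytic subunits are related genes, and their levels can only be separated where their sequences differ. Each is made with a propeptide that is cut off to expose a threonine, which is the catalytic residue. The stretches below are 60 bases of coding sequence around that point for the 3 pairs of immune and constitutive subunits, from the GENCODE M21 transcripts, with the codon of this threonine in capitals.

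Psmb8: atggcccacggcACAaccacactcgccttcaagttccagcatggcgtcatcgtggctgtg
Psmb5: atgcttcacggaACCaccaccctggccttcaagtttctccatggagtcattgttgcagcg
Psmb9: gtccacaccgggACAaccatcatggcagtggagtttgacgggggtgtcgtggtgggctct
Psmb6: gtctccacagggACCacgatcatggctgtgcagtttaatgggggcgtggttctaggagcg
Psmb10: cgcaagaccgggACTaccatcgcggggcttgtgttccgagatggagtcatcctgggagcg
Psmb7: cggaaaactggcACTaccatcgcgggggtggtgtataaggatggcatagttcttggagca

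From the threonine codon on, 37 of 48 bases were identical between Psmb8 and Psmb5, 34 of 48 between Psmb9 and Psmb6, and 34 of 48 between Psmb10 and Psmb7. Over the whole coding sequence Psmb8 was 66.3% identical to Psmb5, with a longest identical run of 18 bases. Psmb9 was 65.3% identical to Psmb6 with a longest run of 11 bases, and Psmb10 was 63.7% identical to Psmb7 with a longest run of 15 bases. Reads of immune and constitutive partners thus differ along their length.

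Total expected counts were 39819960 in library 1 and 37060119 in library 2, and the cardiomyocyte markers Myh6, Actc1, Tnnt2 and Tnni3 summed to 18048 and 18229 TPM. TPM is a read count divided by transcript length and scaled to a fixed total, so levels of different genes can be set side by side. Of the 50 genes, 46 had at least 1 TPM in both libraries, against 48.8% of 22015 nuclear protein-coding genes. The 4 others were Psma8, Psmb11, Psme2b and Psmc3ip. The 50 genes summed to 1652 TPM in library 1 and 1695 TPM in library 2, or 0.512% ± 0.0091 (SD, n = 2) of what all nuclear protein-coding genes summed to. The median mean level of the 46 detected genes was 34.1 TPM, against 7.62 TPM for all 10754 detected nuclear protein-coding genes.

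**Figure D1:**
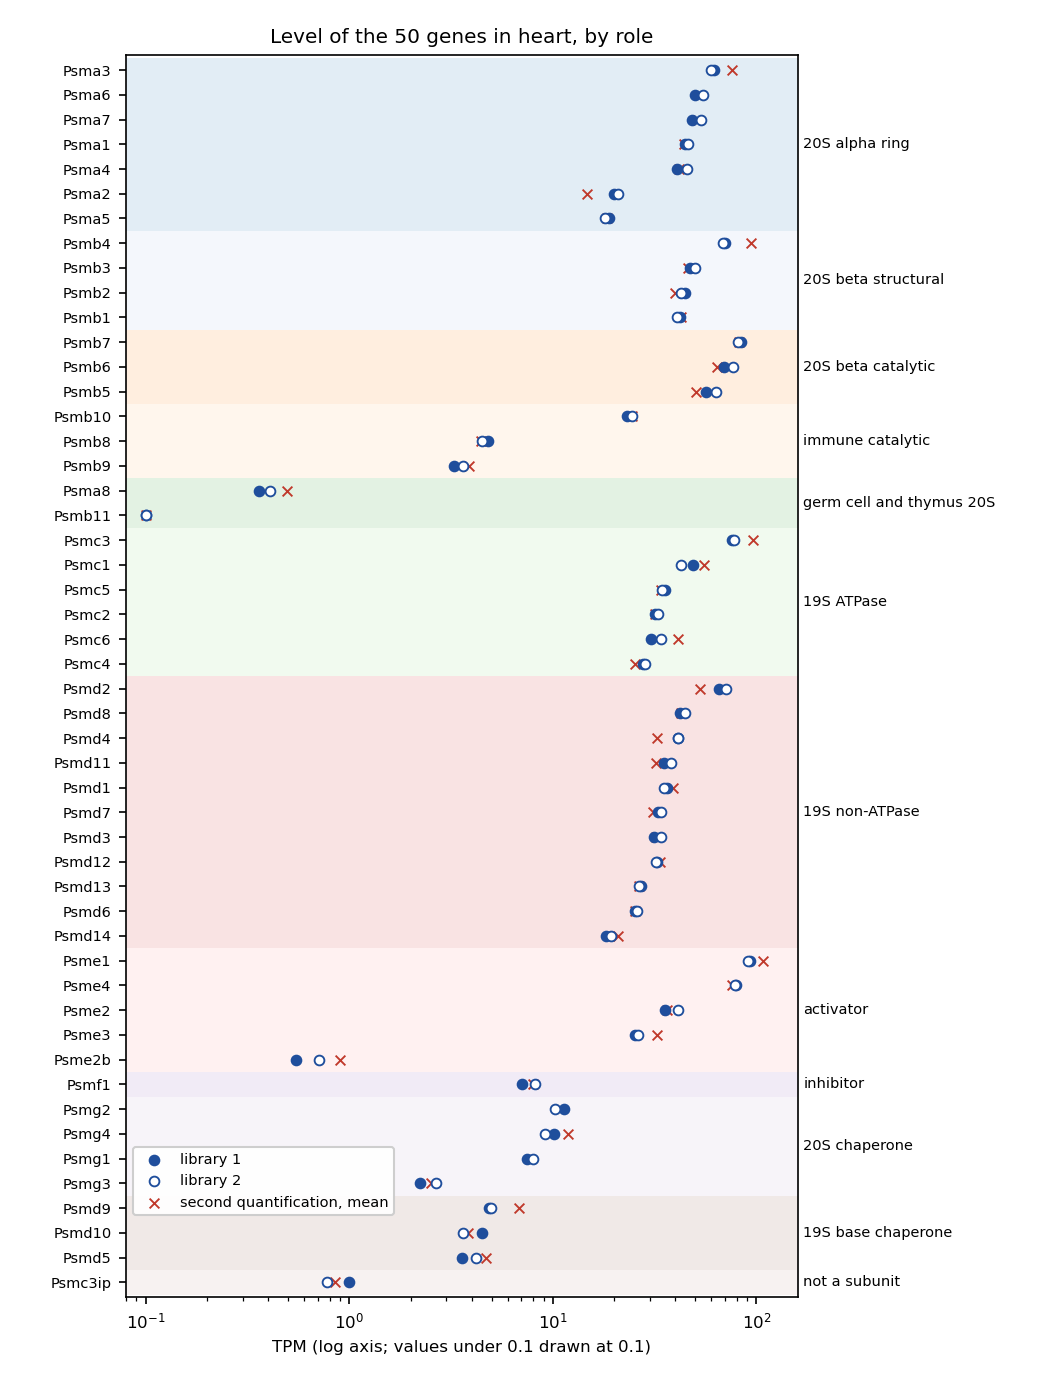
TPM (log axis) of the 50 genes in library 1 (filled), library 2 (open) and as the mean of the second quantification (cross), grouped by role. In means of the first quantification, the constitutive subunits of the 20S core and the 19S subunits lay between 18.5 and 82.8 TPM, and assembly factors and the immune subunits Psmb8 and Psmb9 at or under 10.8 TPM.

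The alpha ring forms the gate of the barrel, and all 7 of its somatic subunits were detected. Psma3 was the highest, at 62.2 TPM in library 1 and 59.8 TPM in library 2. Psma5 was the lowest, at 18.8 and 18.1 TPM, and Psma2 was near it, with a mean of 20.4 ± 0.566 TPM (SD, n = 2). The other 4, Psma1, Psma4, Psma6 and Psma7, had mean levels between 43.1 TPM (Psma4) and 52.1 TPM (Psma6). In whole-gene TPM, Psma2 and Psma5 stood apart from the rest of the ring in both libraries by far more than the spread between libraries. Each subunit fills the same number of places in the ring. In protein_coding transcripts alone Psma3 lay nearer to these 2, at 28.5 and 30.5 TPM. In counts not divided by length, Psma2 (1409 and 1395) was near Psma4 (1360 and 1434).

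The 4 structural beta subunits, which carry no protease site, had mean levels between 41.5 TPM (Psmb1) and 69.1 TPM (Psmb4). Psmb4 had 69.7 TPM in library 1 and 68.5 TPM in library 2. Psmb1 had 42.2 and 40.8 TPM, Psmb2 44.6 and 42.4 TPM, and Psmb3 47.0 and 49.9 TPM, so the lowest 3 lay close together.

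The 3 constitutive catalytic subunits lay, with Psmb4, at the top of the beta ring. Psmb7, which cuts after basic residues, had 84.0 TPM in library 1 and 81.6 TPM in library 2, the highest level of the 20S core in the first quantification (Psmb4 was above it in the second). Psmb6, which cuts after acidic residues, had 69.2 and 77.1 TPM. Psmb5, which cuts after hydrophobic residues and is the main target of bortezomib, had 56.4 and 63.3 TPM. Their order was the same in both libraries, and the gap between Psmb6 (73.2 ± 5.57 TPM, SD, n = 2) and Psmb5 (59.8 ± 4.87 TPM) was larger than either SD. They lie on separate chromosomes (mm10): Psmb5 at chr14:54614119-54618022, Psmb6 at chr11:70525367-70527858 and Psmb7 at chr2:38588036-38644087. Across the 14 constitutive 20S subunits the median level was 49.7 TPM, and the highest was 4.49-fold the lowest.

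The immune catalytic subunits were all detected, at very unequal levels. Psmb10, which replaces Psmb7, had 23.2 TPM in library 1 and 24.5 TPM in library 2 on 548 and 536 counts. Psmb8, which replaces Psmb5 and is the target of immunoproteasome inhibitors, had 4.80 and 4.47 TPM on 143 and 135 counts. Psmb9, which replaces Psmb6 and lies beside the peptide transporter gene Tap1 in the MHC region of chromosome 17, had 3.27 and 3.61 TPM on 91 and 86 counts. Psmb8 (chr17:34197721-34201454) and Psmb9 (chr17:34181987-34187764) flank Tap1, while Psmb10 lies at chr8:105935735-105938444 (mm10). Psmb10 was higher than 80.9% of detected nuclear protein-coding genes, against 33.9% for Psmb8 and 24.5% for Psmb9.

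Each immune subunit was below its constitutive partner in both libraries. The Psmb8 over Psmb5 ratio was 0.0851 in library 1 and 0.0706 in library 2. The Psmb9 over Psmb6 ratio was 0.0472 and 0.0468, and that of Psmb10 over Psmb7 was 0.276 and 0.300. Psmb10 was thus nearer to its partner than the other immune subunits were to theirs, in either library. The 3 immune genes held 12.9% ± 0.136 (SD, n = 2) of the summed TPM of the 6 catalytic subunits, and Psmb10 accounted for most of that share.

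These shares depend on which transcripts are counted. In protein_coding transcripts of the first quantification alone, Psmb10 had 8.89 TPM in library 1 and 9.82 TPM in library 2. Psmb7 then had 83.7 and 81.3 TPM. The Psmb10 over Psmb7 ratio was then 0.114, and those of Psmb8 and Psmb9 over their partners were 0.0442 and 0.0421. The immune share of the 6 catalytic subunits was 6.60% on this basis. It was not computed for coding transcripts of the second quantification. In these coding transcripts Psmb10 was still nearer to its partner than Psmb8 or Psmb9.

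Leukocyte markers were measured in the same libraries. Of 6 such genes (Ptprc, Cd68, C1qa, Cd3e, Cd79a and Itgam), 3 reached 1 TPM in both libraries, and all 6 summed to 16.5 TPM in library 1 and 16.2 TPM in library 2. The macrophage complement gene C1qa gave most of it, at 11.7 and 11.4 TPM, more than whole-gene Psmb8 or Psmb9, and the T cell gene Cd3e had 2 and 0 counts. The endothelial markers Pecam1, Cdh5, Kdr and Tie1 summed to 109 and 99.1 TPM. Which cells carried the immune subunit RNA was not tested, and in whole tissue fewer cells of a type and less RNA per cell cannot be told apart.

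**Figure D2:**
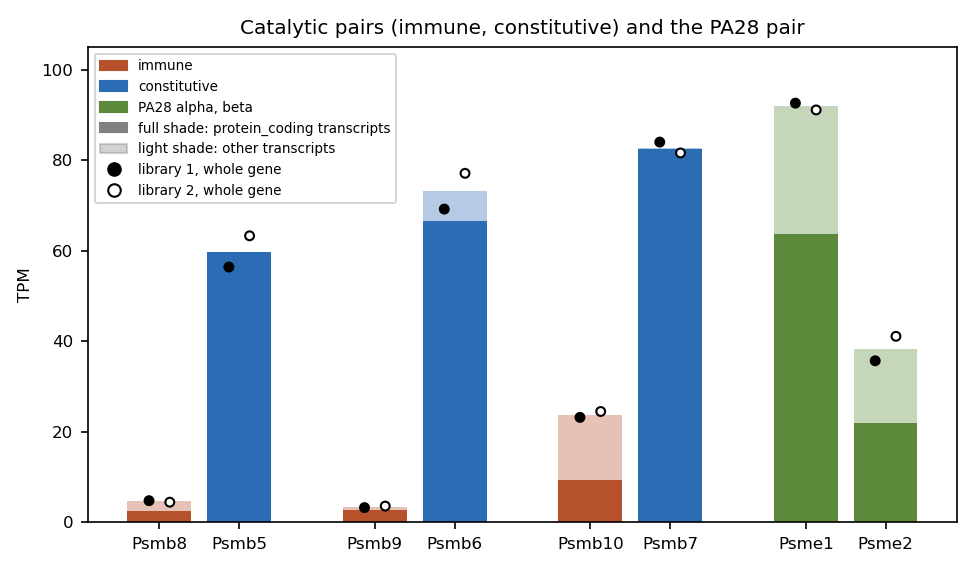
TPM of the immune subunits beside their constitutive partners, and of the PA28 subunits Psme1 and Psme2; bars are means of 2 libraries, split into protein_coding (full shade) and other transcripts (light shade), and points are the libraries. Psmb8 and Psmb9 stood under 5 TPM while their partners stood at 59.8 and 73.2 TPM, and much of the Psmb10 bar was in transcripts not annotated as coding.

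Psmb10 had the lowest share of TPM in coding transcripts among the 46 detected members in the first quantification, while Psma3 and Psmc6 were lower in the second. Its full coding transcript Psmb10-201 (1311 bases) held 38.3% of the gene's TPM in library 1 and 40.1% in library 2. A processed transcript of 426 bases, Psmb10-203, held 32.3% and 47.6%, and the retained-intron transcript Psmb10-205 held 21.9% and 7.40%. The split between the short entries moved between libraries, while the coding share was 39.2% ± 1.27 (SD, n = 2). Because TPM divides by length, short entries reach a given TPM with few reads.

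Psmb8 and Psmb9 also spread over several transcripts. The leading Psmb8 entry was the coding Psmb8-203, with 62.9% of the gene's TPM in library 1 and 49.3% in library 2. The retained-intron Psmb8-205 held 31.9% and 42.2%. In the second quantification Psmb8-205 held 3.42% and 26.2%, and the coding Psmb8-201, at 0 in the first, held 26.7% and 24.5%. The mean coding share of Psmb8 was 56.1% in the first and 77.1% ± 18.6 (SD, n = 2) in the second. The stretch printed for Psmb8 occurs in transcripts that together hold all of the gene's TPM. For Psmb9 the transcripts with the printed stretch held a mean of 43.0% of the TPM. The remaining Psmb9 transcripts included the leading entry, Psmb9-202 (433 bases, annotated as protein_coding), with 39.4% and 41.3%. A whole-gene level of Psmb9 is thus not a level of the transcript that holds the start of the mature chain.

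Tissue-restricted core subunits were at the bottom of the range. Psma8, the alpha subunit of the germ cell proteasome that stands in for Psma7, had 0.36 TPM in library 1 and 0.41 TPM in library 2 on 19 and 13 counts. The germ cell genes Sycp1, Dmc1 and Ddx4 summed to 0.06 and 0.04 TPM. Psma8 was 74.9% identical to Psma7 in coding sequence, with a longest identical run of 17 bases. Psmb11, the catalytic subunit of the thymus proteasome, had 0 counts in both libraries in the first quantification, which allows up to 3 counts of the total in each. The thymus epithelium gene Foxn1 also had 0 counts there. In the second quantification Psmb11 had 0.0587 and 0.0319 TPM, and Foxn1 had 0.0164 and 0 TPM.

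The 17 subunits of the 19S particle had a median of 33.3 TPM, below the 49.7 TPM of the constitutive core. Among the 6 ATPases, which unfold the substrate, Psmc3 was the highest at 75.7 TPM in library 1 and 77.5 TPM in library 2. Psmc4 was the lowest in whole-gene TPM, at 27.6 and 28.4 TPM. The other 4 had mean levels between 32.1 TPM (Psmc6) and 45.5 TPM (Psmc1). In protein_coding transcripts alone Psmc6 was instead the lowest of the ring in both libraries, below the 26.1 and 26.2 TPM of Psmc4. Coding transcripts held a mean of 56.5% of the TPM of Psmc6, against 93.3% for Psmc4. Psmc1 had the widest spread of the ring in whole-gene TPM, at 48.6 and 42.5 TPM, but its count ratio between libraries was 0.994. Its protein_coding transcripts had 34.4 and 35.6 TPM, and its retained-intron transcript Psmc1-202 (381 bases) had 14.1 and 6.57 TPM.

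The 11 non-ATPase subunits ran over a similar range. Psmd2, a large scaffold subunit that binds shuttle factors, was the highest at 65.3 TPM in library 1 and 70.9 TPM in library 2. Psmd14, the metalloprotease that removes ubiquitin from the substrate, was the lowest at 18.3 and 19.4 TPM. The ubiquitin receptor Psmd4 had 41.2 and 41.0 TPM, and the other scaffold, Psmd1, had 36.4 and 35.0 TPM. The remaining 7, Psmd3, Psmd6, Psmd7, Psmd8, Psmd11, Psmd12 and Psmd13, had mean levels between 25.6 TPM (Psmd6) and 43.2 TPM (Psmd8). The 19S members spanned a 4.07-fold range, close to the 4.49-fold range of the core, and their coefficient of variation was 0.385 against 0.357 for the core.

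Activators dock on the barrel in place of the 19S particle, and they held the highest gene of the set in whole-gene TPM. Psme1, the PA28 alpha subunit, had 92.6 TPM in library 1 and 91.1 TPM in library 2, above 95.2% of detected nuclear protein-coding genes. Its partner Psme2, PA28 beta, had 35.7 and 41.1 TPM. The Psme1 over Psme2 ratio was 2.60 and 2.22, although the subunits assemble into 1 ring. In protein_coding transcripts alone the ratio was 3.49 and 2.42, so it stayed above 2 on that basis as well. Psme1 was then no longer the highest of the set, at 68.1 and 59.5 TPM against 83.7 and 81.3 TPM for Psmb7.

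The PA28 genes lie close together on chromosome 14 (mm10), with 5911 bases between them that also hold Emc9, and both are interferon-responsive in many cell types. Their levels were nevertheless unlike those of Psmb8 and Psmb9 in this heart tissue, since the lower of them, Psme2, had 38.4 ± 3.85 TPM (SD, n = 2) and Psmb8 had 4.63 ± 0.233 TPM. Psme2b, a relative of Psme2 annotated as coding, had 0.55 and 0.71 TPM on 13.4 and 16.3 expected counts. Its coding sequence is identical to that of Psme2 at 712 of 717 bases, with a run of 311 identical bases. All 837 bases of Psme2b also overlap Gm12185 on the same strand, which had 43 and 68 counts. The level of Psme2b is uncertain where reads could be split between these genes.

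Psme4, the large activator PA200, which has been tied to acetylated histone turnover, had 79.8 TPM in library 1 and 78.5 TPM in library 2 on 15692 and 14942 counts, the most counts of any member. Its 6491-base transcript Psme4-201 held 92.2% and 95.1% of that TPM. Psme3, the nuclear activator PA28 gamma, had 25.4 and 26.2 TPM, and the Psme4 over Psme3 ratio was 3.14 and 2.99. The inhibitor Psmf1 (PI31), which binds the core and competes with activators in vitro, was low at 7.06 and 8.17 TPM.

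Assembly factors were low as a group. They act on each particle while it is built and then leave it, unlike the subunits. Of the 20S chaperones, Psmg2 was the highest at 11.4 TPM in library 1 and 10.2 TPM in library 2 (Psmg4 was above it in the second quantification), and Psmg3 the lowest at 2.23 and 2.66 TPM. Psmg1 and Psmg4 had mean levels of 7.71 and 9.60 TPM. Of the 3 base chaperones, which guide the ATPase ring, Psmd9 was the highest at 4.85 and 4.97 TPM. Psmd5 had 3.56 and 4.18 TPM and Psmd10 (gankyrin) 4.51 and 3.63 TPM, so their order differed between the libraries. The highest of these 7 factors, Psmg2, lay below each of the 31 constitutive subunits in both libraries. Pomp, a core maturation factor that the symbol rule does not take, was in contrast at 57.5 and 55.8 TPM.

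Psmc3ip shares the symbol prefix but is a recombination factor of meiosis and no proteasome subunit. It had 1.00 TPM in library 1 and 0.78 TPM in library 2 on 35 and 25 counts, and its leading entry was a retained-intron transcript.

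The share of TPM in protein_coding transcripts showed which gene levels rest on other entries. Its median over the detected members was 97.3%, against 93.2% over all genes with a mean of at least 1 TPM. At or above 90% were 32 of 46 members, a count that was not made over all genes. Under 50% were 2 members, Psma3 and Psmb10, against 7.24% of 10986 protein-coding genes. In the second quantification 4 were, with Psmc6 and Psmb4 added, against 8.70% of genes. Psma3 had 45.8% of its TPM in coding transcripts in library 1 and 51.0% in library 2, and a nonsense-mediated decay transcript, Psma3-201, held 25.8% and 24.2%. The highest alpha ring level was therefore not a coding level, since coding transcripts of Psma3 had 28.5 and 30.5 TPM.

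Several other members carried large shares of such transcripts. Psme1 had 20.9% of its TPM in library 1 and 26.9% in library 2 in the nonsense-mediated decay transcript Psme1-209 (439 bases). In Psmd13, a 19S lid subunit, Psmd13-211 of the same class held 37.2% and 33.1%. In Psmb4 the retained-intron transcript Psmb4-202 held 20.8% and 23.6%, but a mean of 0.807% in the second quantification, where Psmb4-203 and Psmb4-204 of that class held 26.2% and 27.3%. Psmc6 had 25.0% and 28.7% in the nonsense-mediated decay transcript Psmc6-208. In the inhibitor Psmf1 such a transcript, Psmf1-206, held 9.21% and 16.5% in the first quantification and next to none in the second.

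**Figure D3:**
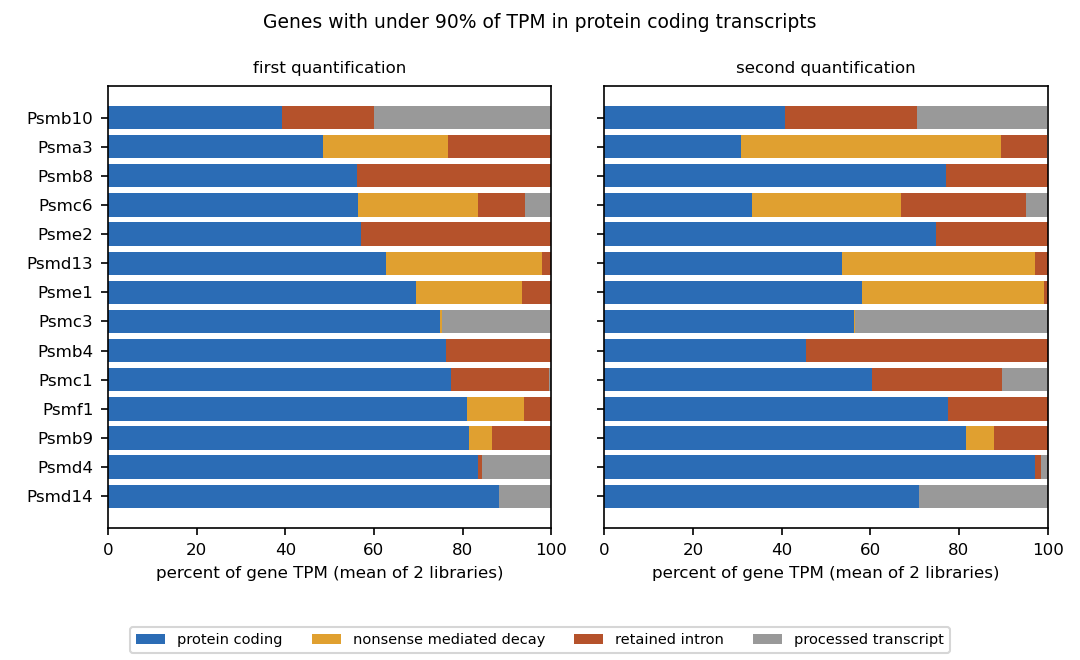
Percent of gene TPM by transcript class (mean of 2 libraries) for the 14 detected genes with under 90% in protein_coding transcripts in the first quantification, beside the same genes in the second. Psmb10 had 39.2% and 40.7% in coding transcripts, while Psmb4 had 76.3% in the first and 45.5% in the second.

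The deposited files hold a second quantification of the same libraries, in which none of the 46 detected members lay more than 1.5-fold from the first in both libraries. Over all 10986 protein-coding genes, 0.792% lay that far above and 1.14% that far below. The first over second ratio of these 46 ran from 0.722 for Psmd9 to 1.39 for Psma2. Psma2 had a mean of 20.4 TPM in the first and 14.7 TPM in the second, and Psmb4 had 69.1 TPM in the first and 93.7 TPM in the second. Psma2 was thus the lowest alpha subunit in the second quantification, where Psma5 had 18.4 TPM. The leading transcript was the same in 38 of 46 members, a count that was not made over all genes. The coding share of Psmb4 was 76.3% in the first and 45.5% in the second.

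**Figure D4:**
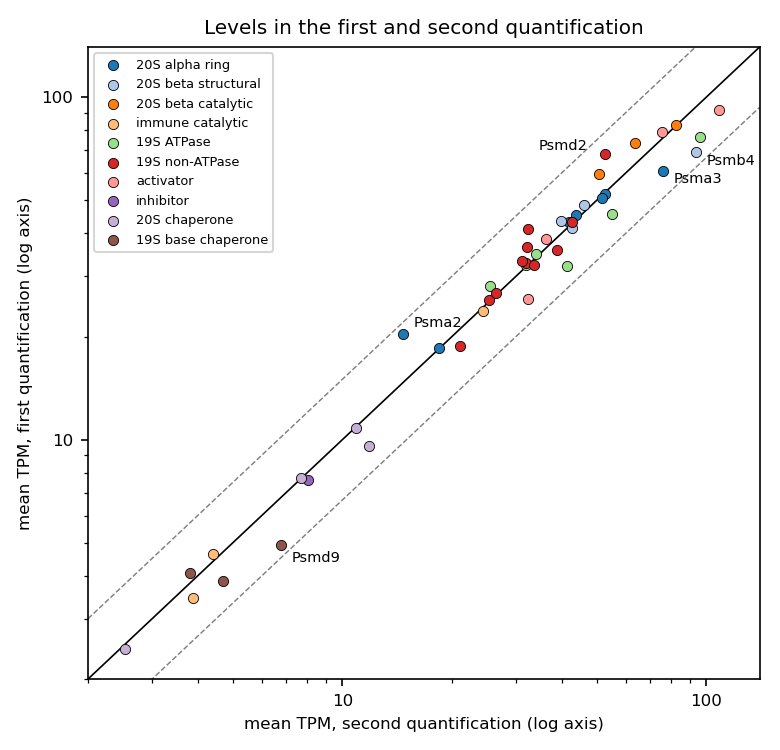
Mean TPM of the 46 detected genes in the first quantification against the second (log axes), coloured by role; the solid line marks equal values and the dashed lines 1.5-fold. All 46 points lay between the dashed lines, with Psmd9 at a ratio of 0.722 and Psma2 at 1.39.

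The libraries were close to each other for these genes. The log2 ratio of library 1 over library 2, computed as log2 of TPM + 1, ran from -0.20 for Psme2 to 0.25 for Psmd10, with a median of -0.04 against 0.005 over all genes with a mean of at least 1 TPM. Library 1 was higher for 18 members and library 2 for 28, a split that was not counted over all genes. Among genes with a mean of at least 10 TPM, the SD of this ratio was 0.0898 over 37 members and 0.164 over 4439 genes. None of the 46 was past 2-fold, against 0.237% of genes.

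Each ratio was also set against its counting error. The exact 95% interval of the expected count ratio, scaled by total count, left out 1 with library 1 higher for 0 members, against 10.1% of 10986 genes. With library 2 higher it left out 1 for 11 members, against 12.8% of genes. Those were Psma4, Psma6, Psma7, Psmb5, Psmb6, Psmc3, Psmd2, Psmd3, Psme2, Psme3 and Psme4, with ratios from 0.871 (Psme2, interval 0.786 to 0.965) to 0.977 (Psme4, interval 0.956 to 0.9996). The interval narrows with counts, and Psme2, the least counted of the 11, had 725 and 775. Other members with many counts had intervals that included 1, such as Psmd1 (3577 and 3265) and Psmb7 (2968 and 2718). Whether counts set the 11 apart was not tested. For Psme4 the TPM was slightly higher in library 1 and the scaled count lower, so the direction differed between these measures.

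The number of these differences depended on scaling. Scaled by the ERCC spike-ins, 24 members had an interval that left out 1 with library 2 higher, and 31.5% of all genes did. With edgeR's TMM factors the count was 9, without Psmc3 and Psme4, against 11.2% of all genes. Psmd10 then had an interval above 1 at a ratio of 1.24, a call that 11.6% of all genes shared. These intervals cover counting error only, and with 1 library on each side they do not compare conditions.

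**Figure D5:**
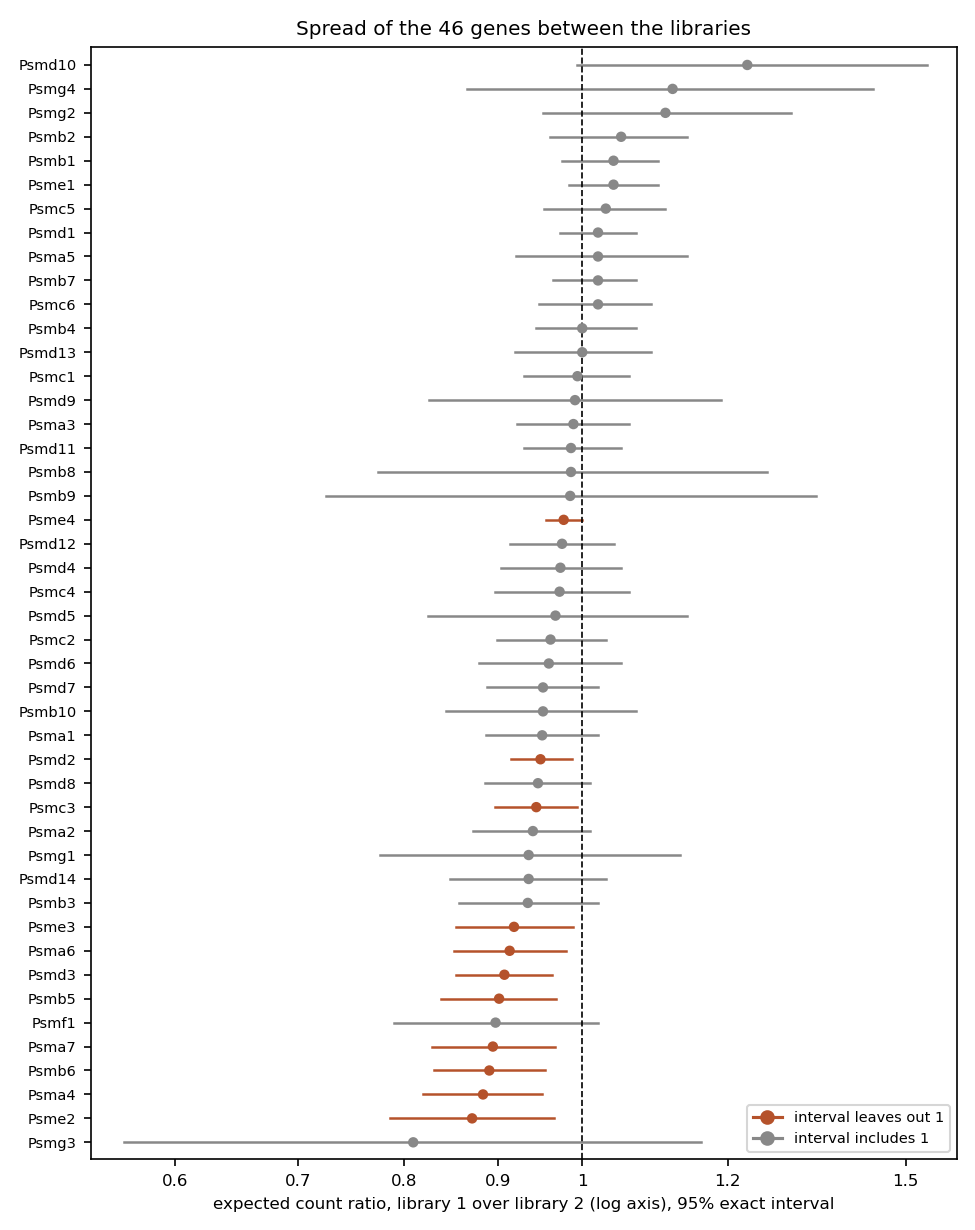
Expected count ratio of library 1 over library 2, scaled by total count (log axis), with the exact 95% interval for the 46 detected genes, sorted; coloured points have intervals that leave out 1. All 11 coloured genes had ratios under 1, from 0.871 to 0.977.

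Processed pseudogenes, which are reverse-transcribed copies of a spliced RNA, can share reads with their source. Of 38 annotated copies of 18 members, 22 had no counts and 5 had a mean of at least 1 TPM in the first quantification. In the second, some of the 22 had low levels, up to 0.141 TPM (Gm46496, library 1). The copy of Psmb5, Gm3375, which is 98.9% identical over 793 aligned bases, had 5.00 TPM in library 1 and 6.68 TPM in library 2. AC114990.1, annotated only as a pseudogene, is a copy of Psmb3 that is 97.1% identical over 615 bases. It had 5.10 and 6.55 TPM, beside 47.0 and 49.9 TPM for Psmb3. A copy of Psma5, Gm8394, had 3.36 and 3.66 TPM, beside 18.8 and 18.1 TPM for Psma5 itself. Gm13835, identical to Psma3 over 662 bases, had 1.40 and 3.44 TPM in the first quantification and at most 9.42e-08 TPM in the second. Gm4118, a copy of Psma2, had 2.37 and 1.51 TPM. How reads were split between the copies and Psma2, Psma3, Psma5, Psmb3 and Psmb5 was not tested, so these levels are uncertain.

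Genes that share a promoter region with a member were measured too. Of the 46 detected members, 12 start within 1000 bases of a coding gene on the other strand, against 16.7% of detected nuclear protein-coding genes. Psmb9 and Tap1, which carries peptides into the endoplasmic reticulum, start 211 bases apart, and Tap1 had 1.46 TPM in library 1 and 2.30 TPM in library 2. Psmd13 and Sirt3, a mitochondrial deacetylase, start 341 bases apart, and Sirt3 had 23.1 and 22.7 TPM, near the 27.2 and 26.5 TPM of Psmd13. Psmb1 and Tbp, the TATA-binding protein, start 137 bases apart, with Tbp at only 2.75 and 2.61 TPM. Each of the 12 partners lay below its member in both libraries. Levels were like for Psmd13, and for Psmd10 (4.51 and 3.63 TPM) with Atg4a (3.81 and 3.62 TPM). They were unlike for Psmb1 and others, such as Psma7 (48.4 and 53.5 TPM) with Ss18l1 (1.00 and 0.85 TPM). Of the 50 members, 19 overlap a gene on the other strand, as Psmb9 does Tap1 and Psmd13 does Sirt3. On the same strand, 10 overlap one. Whether counting used strand is not given in the sources, so these levels may hold reads of the overlapping gene.

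Promoters were searched for motifs linked to control of these genes. They run from 250 bases before the RefSeq start to 50 after it (GRCm38.p6), were on hand for 42 members, and were read on both strands. Shown are those of the immune subunit Psmb8, its partner Psmb5 and the activator Psme1, since they lie far apart in level and each holds a match, in capitals. For Psmb8, Psmb5 and Psme1 the RefSeq start lies inside the GENCODE gene, so match positions count from the RefSeq start.

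Psmb8, chr17:34197945-34198244, + strand: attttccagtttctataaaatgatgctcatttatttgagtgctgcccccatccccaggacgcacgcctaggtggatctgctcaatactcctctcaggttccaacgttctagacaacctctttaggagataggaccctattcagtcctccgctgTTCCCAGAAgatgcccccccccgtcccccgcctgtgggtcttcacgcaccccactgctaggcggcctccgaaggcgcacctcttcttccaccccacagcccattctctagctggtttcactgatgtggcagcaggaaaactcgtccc
Psmb5, chr14:54617946-54618245, - strand: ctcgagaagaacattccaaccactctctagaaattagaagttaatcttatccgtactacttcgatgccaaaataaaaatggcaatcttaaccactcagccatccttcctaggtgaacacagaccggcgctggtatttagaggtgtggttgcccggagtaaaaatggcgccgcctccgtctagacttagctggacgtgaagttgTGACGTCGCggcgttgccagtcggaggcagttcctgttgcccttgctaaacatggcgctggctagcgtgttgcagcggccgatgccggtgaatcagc
Psme1, chr14:55578244-55578543, + strand: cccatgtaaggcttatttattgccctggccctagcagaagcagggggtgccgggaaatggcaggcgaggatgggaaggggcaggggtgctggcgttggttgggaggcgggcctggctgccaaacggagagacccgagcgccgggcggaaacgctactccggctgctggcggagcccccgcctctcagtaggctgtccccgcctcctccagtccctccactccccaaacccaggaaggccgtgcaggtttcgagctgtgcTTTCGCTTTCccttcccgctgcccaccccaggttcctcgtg

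The capitals in Psmb8 are a match to TTCNNNGAA, the letters of a gamma-activated site, 97 bases before the start. Those in Psmb5 match TGACNNNGC, the core of an antioxidant response element, 47 bases before the start, and those in Psme1 match TTTC, any 2 bases, then TTTC, the letters of an interferon-stimulated response element, 9 bases after it. TGACNNNGC occurred in 6 of 42 members (14.3%), among them Psmb6 and Psme4, and in 17.1% of 8467 detected protein-coding genes. CCAAT, the NF-Y box, occurred in 15 (35.7%) and in 42.8% of those genes. TTCNNNGAA occurred in 3 (7.14%), namely Psmb8, Psmd2 and Psmg1, against 8.02%. The paired TTTC motif occurred in 5 (11.9%), namely Psmb3, Psmd4, Psmd9, Psme1 and Psmg4, against 3.54%. Apart from Psmb8 and Psme1, the immune subunits and PA28 genes held neither interferon motif. Psmb9 held only CCAAT, and Psmb10 and Psme2 held no match to any of these motifs. No test was made of these shares, and a match gives only the presence of the letters in the window.

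Partners of the proteasome outside the symbol rule were detected throughout, at 15 of 15 genes measured. Ecpas, a proteasome adaptor and scaffold protein, had 62.1 TPM in library 1 and 62.6 TPM in library 2, Pomp was next, and the shuttle factor Rad23b had 39.4 and 35.8 TPM. The lowest was the deubiquitinase Uchl5, at 5.54 and 4.94 TPM. Among 9 genes that control subunit transcription, 8 were detected. The highest was Nfe2l1, the factor that raises subunit genes when proteasome activity falls, at 169 and 159 TPM, while its relative Nfe2l2 had 18.4 and 19.2 TPM. Vcp, the unfoldase that extracts Nfe2l1 protein from the membrane, had 89.2 and 94.9 TPM. At the other end was Nlrc5, the activator of MHC class I genes, at 0.53 and 1.23 TPM.

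Of 10 genes of peptide presentation, all 10 were detected. The chaperone Canx had 115 TPM in library 1 and 109.9 TPM in library 2, Calr had 109 and 94.2 TPM, and the class I light chain B2m had 66.2 and 76.7 TPM. Tap1 was the lowest of the list. Among the immune-linked genes measured, Psme1 and B2m were high, while Psmb8, Psmb9 and Tap1 each had a mean of under 5 TPM. Others filled the range between, at means of 8.22 TPM for Tap2, 23.8 TPM for Psmb10 and 36.8 TPM for Tapbp. Psme2 had a mean of 38.4 TPM, H2-D1 38.9 TPM and H2-K1 40.0 TPM.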

How the data were processed

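Total RNA of 2 heart libraries was made from 300 ng with a directional kit, reduced ribosomal RNA and ERCC spike-ins, per the labels. The deposited readme gives mm10 and GENCODE M21; neither the aligner nor any version is given in the sources used here, nor whether counting used strand; how Cast alleles map to the reference was not tested. The first quantification (RSEM layout) gives expected counts, TPM, FPKM and the percent of each gene held by a transcript, per the file headers. The second (kallisto layout) holds, per the file headers, estimated counts and TPM of transcripts, which were summed per gene. Totals were 39819960 and 37060119 expected counts, and 42977135 and 38957328 in the second.

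There is 1 group, so no test and no p-value was made. Detection meant at least 1 TPM in both libraries; shares by class used transcript TPM; log2 ratios used a pseudocount of 1 TPM; count ratios carry exact (Clopper-Pearson) 95% intervals from rounded expected counts, for counting error only. The interval step was tested on simulated data. Copies were found with BLAST 2.17.0 (at least 80% identity over 200 bases of coding sequence). A comparison of protein sequences had been planned; coding sequences from the GENCODE M21 transcripts were compared in its place. Biopython 1.88, edgeR 4.0.16 (TMM factors), DESeq2 1.42.0 (size factors), scipy 1.17.1, pandas 2.3.3, numpy 2.4.6, matplotlib 3.10.9, R 4.3.3 and Python 3.11.15 were used. Alternatives were the second quantification, protein_coding transcripts alone, FPKM, counts, other scalings, pseudocounts and detection levels, and each library left out.

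Members and lists were chosen with earlier results of these data known. Named genes were the highest and lowest of each role, the catalytic and PA28 subunits, members under 1 TPM, members with an interval leaving out 1 or with under 50% in coding transcripts, the 3 highest and the lowest of the other lists, and the copies with the highest TPM; others were named after their values were seen. Paaf1 of the partner list was not analysed here.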

Additional observations from a re-analysis of the deposited data

How the results depend on the processing

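In the second quantification the share of nuclear protein-coding TPM was 0.495%, the Psmb9 over Psmb6 ratio 0.0608, the immune share 14.2%, the coefficient of variation 0.432 for the core and 0.457 for the 19S particle (0.359 and 0.386 as the mean of library values in the first), and the median coding share 96.0%; 31 of 50 member levels moved by more than their SD. In protein_coding transcripts of the first quantification alone the share was 0.523% and the ratios 0.0442, 0.0421 and 0.114. The immune share was then 6.60% and the core variation 0.369. In counts not divided by length the share of the members was 0.376%. With library 1 higher, 1 member (Psmd10) had an interval leaving out 1 under TMM factors (11.6% of all genes) and 1 under DESeq2 size factors (12.5%), against 0; with library 2 higher, 24 did under ERCC scaling (31.5%), which moved the median log2 ratio of all genes to -0.09. Of the 11, Psma7 was lost in the second quantification, and Psmc3 and Psme4 under TMM and DESeq2. Leaving out each library gave 0.505% to 0.518% for the share, 0.0706 to 0.0851, 0.0468 to 0.0472 and 0.276 to 0.300 for the ratios, and 12.8% to 13.0% for the immune share. The causes were not tested. No paired analysis was possible because there is 1 group. Psmb8, Psmb9, Psmg3, Psmg4, Psma8, Psme2b and Psmc3ip rest on under 150 counts a library, and Psmb11 had 0 counts in both.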
